A study of Tupaia belangeri chinensis with 12 samples.

Results

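Kinesins, cytoplasmic dynein and dynactin are the proteins that carry loads along microtubules, and their genes were measured here across 4 layers of developing cortex in fetuses of the Chinese tree shrew (Tupaia belangeri chinensis). The members are the genes whose symbol in the deposited tables begins with KIF, KIFC, KLC, DYNC or DCTN and a digit, or with DYNLL, DYNLR or DYNLT. Of 77 such names, 13 end in "li" and a number and were treated as copies and left out, so that 64 members remained of 81414 gene IDs. The rule itself uses names and no measured value, but members and class lists were chosen with earlier results of these data known.

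The study sequenced poly(A) RNA from 3 germinal layers, namely the ventricular zone (VZ) and the inner (ISVZ) and outer (OSVZ) parts of the subventricular zone, and from the cortical plate (CP), where young neurons settle. The layers were cut by laser from Nissl-stained frozen sections. Each layer has 3 libraries, called VZ 1 to CP 3 after the number in their labels, and no treatment or genotype is given. The labels state embryonic day 37 for all of them, while the table names carry day 35. Whether the 3 libraries of 1 layer are separate animals, and whether layers share an animal, is not said, so the p-values measure the spread between these libraries, which may be technical.

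Microtubules are polar tracks. Most kinesins walk toward the plus end and dynein walks toward the minus end, with dynactin as the complex that joins dynein to its load. In a dividing radial glial cell a set of kinesins builds the spindle and the midbody, dynein pulls the nucleus toward the ventricle, and ciliary motors serve the primary cilium. In a neuron other kinesins carry vesicles and mitochondria down the axon, while dynein brings material back to the soma and draws the nucleus forward during migration.

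Levels are given as FPKM, read fragments per unit of transcript length and of sequencing depth, divided by 1 factor per library, and can be compared between genes because they are per length. Values for a layer follow the library numbers 1, 2 and 3, which carry no order. Testing was limited to genes that reached 1 scaled FPKM in 3 libraries: 14101 genes, among them 53 of the 64 members. Differences are on the scale of log2 (scaled FPKM + 1), which understates the change of low genes, and are given ± SE with limma's p-value adjusted over all tested genes.

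VZ and CP carried the markers of their names. Summed scaled FPKM of 4 radial glia markers ranged from 427 to 523 in VZ and from 14.5 to 20.5 in CP, and that of 6 neuron markers from 45.7 to 107 in VZ and from 990.3 to 1449 in CP. The 2 intermediate progenitor markers did not set ISVZ or OSVZ apart from VZ. Their sum ranged from 81.0 to 163 in VZ, 66.4 to 154 in ISVZ, 74.9 to 131 in OSVZ and 0.139 to 0.709 in CP. All 4 proliferation markers were highest among the ISVZ libraries in ISVZ 3, where their sum was 197 against 133 and 108 in ISVZ 1 and 2. Among the OSVZ libraries, OSVZ 3 had the highest neuron sum, 519.9 against 324 and 289.9. There 3 of the 6 markers were highest, among them GAP43 and MAPT, while TBR1 and MEF2C were lowest. Choroid plexus markers summed to 556, 2664 and 37.0 in VZ 1, 2 and 3, and VZ 2 was the highest of the 12 libraries for 9 of 10 motile cilia markers. Microglia markers were lower in CP (0.973 to 1.83 in sum) than in the germinal layers (6.74 to 25.8), the 4 markers of meninges and mural cells went in different directions (LUM 12.9, 17.0 and 13.8 in CP and at most 4.51 elsewhere; PDGFRB at a mean of 0.693 in CP and 7.40 in VZ; DCN and COL1A1 below 1 throughout), endothelial markers ranged from 6.48 to 19.4, and 1 of 4 erythroid markers was found. In such bulk samples, fewer cells of a type and less RNA per cell cannot be told apart.

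The motors fell into classes that moved in opposite directions. Over the 4 layers, 38 of the 53 tested members differed by limma's F test, against 51.8% of all tested genes. In CP against the mean of VZ, ISVZ and OSVZ, 17 members were higher (24.0% of all tested genes were) and 19 were lower (28.7% of all were), which makes 67.9% of members called against 52.7% of genes. The median difference was 0.09 over members and -0.05 over all tested genes, so the class medians given next describe the split better than the median of the whole set. Every one of the 11 tested kinesins listed as mitotic lay below 0 and 9 of the 15 tested cargo kinesins rose, with the largest rise in a dynein chain.

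**Figure D1:**
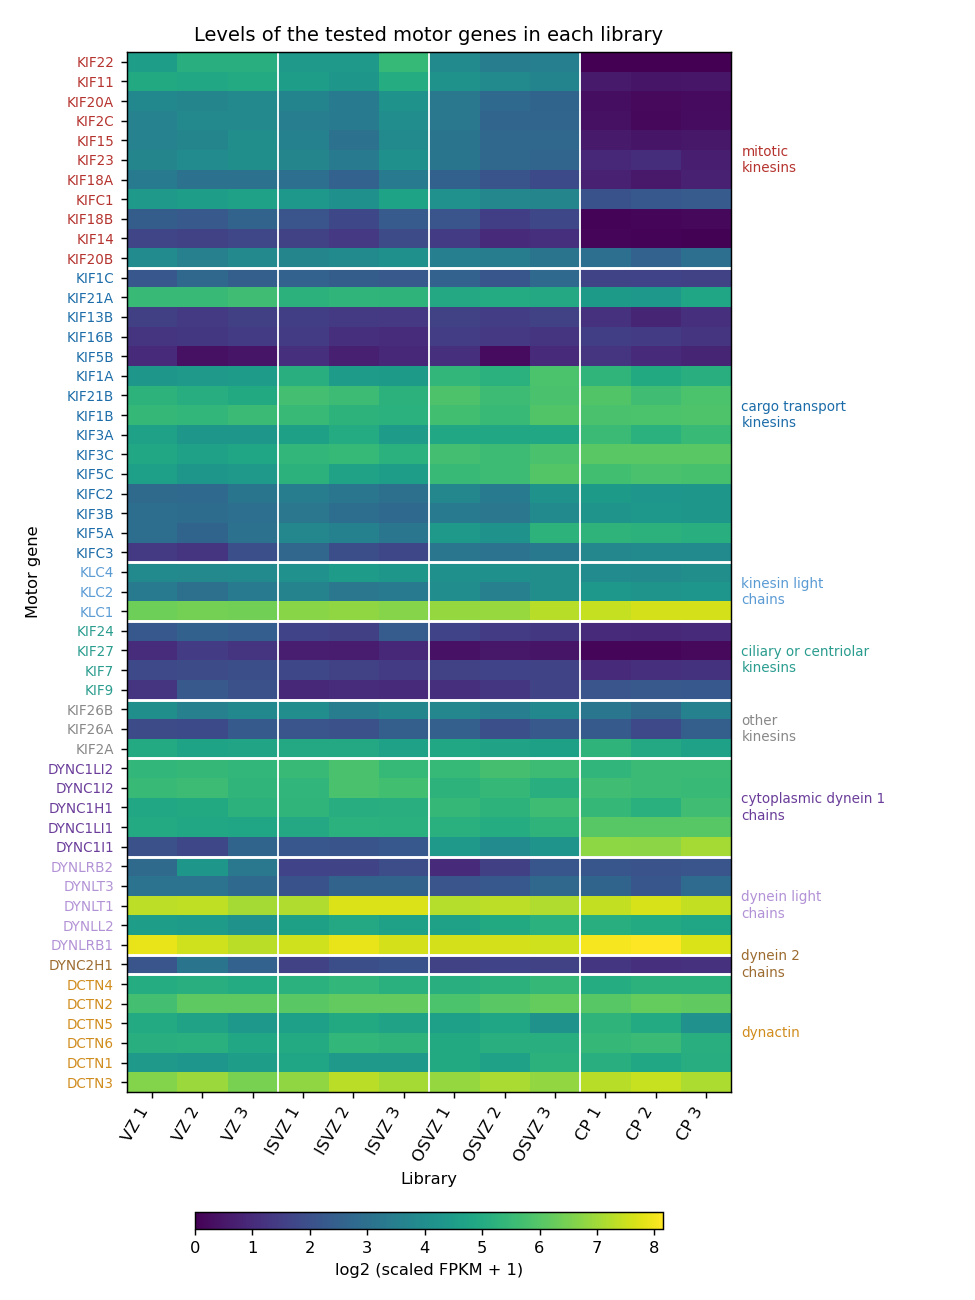
Levels of the 53 tested motor genes, as log2 (scaled FPKM + 1), in the 12 libraries, grouped by class and ordered within a class by the difference of CP from the germinal layers. The mitotic kinesins at the top darken toward CP, DYNC1I1 brightens from OSVZ to CP, and DYNLRB1, DYNLT1, KLC1 and DCTN3 are bright in all libraries.

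The mitotic kinesins assemble the spindle, move chromosomes and close the division. Of 14 names in the list, 13 were found and 11 were tested, and all 11 fell in CP, with a median difference of -2.60. KIF2A, a depolymerase like KIF2C, was not in this list and did not pass in CP (0.16 ± 0.12, adjusted p = 0.297). All 11 were called lower also when ISVZ 3 was left out and when VZ 1 and VZ 2 were left out together. KIF11, the motor that pushes the spindle poles apart (TSDBGID.8922, chromosome 15, 79037253 to 79096417), was at 30.1, 28.5 and 30.8 scaled FPKM in VZ, 22.0, 19.0 and 31.9 in ISVZ, 17.1, 13.7 and 11.7 in OSVZ, and 0.498, 0.362 and 0.399 in CP. Every CP library lay far below the lowest germinal library, and the VZ mean was 71.1 times the CP mean. The difference was -3.99 ± 0.14 (adjusted p = 2.01e-08).

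KIF22, which pushes on chromosome arms (TSDBGID.108, chromosome 2, 59244043 to 59262690), was at 22.2, 33.5 and 33.4 scaled FPKM in VZ, 19.9, 19.7 and 42.9 in ISVZ, 13.5, 9.63 and 10.5 in OSVZ, and is listed at 0 in all 3 CP libraries. No fold can be given against such a group, and its fitted difference of -4.42 ± 0.22 (adjusted p = 8.12e-08) rests on the pseudocount, becoming -7.67 with 0.1 in place of 1. The gene lies wholly inside the annotated span of PRRT2, which was at 7.74 in VZ and 6.88 in CP.

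The motors of late division fell as well, with VZ means 68.7 times the CP mean for KIF20A, 16.3 times for KIF23 and 34.4 times for KIF14. KIF20A, which brings the chromosomal passenger complex to the central spindle, was at 13.1, 12.2 and 13.3 scaled FPKM in VZ, 11.7, 9.49 and 17.3 in ISVZ, 8.70, 5.93 and 5.16 in OSVZ, and 0.241, 0.145 and 0.175 in CP, a difference of -3.23 ± 0.16 (adjusted p = 9.94e-08). KIF23, which forms centralspindlin with RACGAP1, was at 12.2, 14.3 and 15.5 in VZ, 12, 9.09 and 16.2 in ISVZ, 7.93, 5.66 and 5.35 in OSVZ, and 0.887, 1.09 and 0.594 in CP, with a difference of -2.60 ± 0.16 (adjusted p = 3.66e-07). For both genes OSVZ sat between the inner layers and CP with no shared range. KIF14, a motor of cytokinesis, was low throughout, at 2.29, 2.02 and 2.30 in VZ, 2.08, 1.56 and 2.69 in ISVZ, 1.74, 0.970 and 1.13 in OSVZ, and 0.0922, 0.0619 and 0.0380 in CP, a difference of -1.40 ± 0.14 (adjusted p = 8.46e-06).

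KIF2C, a microtubule depolymerase at centromeres, was at 11.3, 13.3 and 13.3 scaled FPKM in VZ, 10.2, 9.17 and 15.0 in ISVZ, 8.60, 5.27 and 5.38 in OSVZ, and 0.287, 0.120 and 0.211 in CP. Its difference was -3.14 ± 0.16 (adjusted p = 9.79e-08). KIF15, which holds the spindle bipolar together with KIF11, was at 11.3, 12.1 and 15.2 in VZ, 11.0, 7.33 and 13.7 in ISVZ, 7.71, 5.71 and 5.76 in OSVZ, and 0.505, 0.370 and 0.432 in CP, a difference of -2.87 ± 0.16 (adjusted p = 1.58e-07). As with KIF11, the CP values formed a tight group near 0 and the highest ISVZ value was that of ISVZ 3.

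The remaining mitotic members varied widely in the level they kept in CP. VZ means were 52.5 times the CP mean for KIF18B and 12.9 times for KIF18A, both of which limit microtubule length, and 6.11 times for KIFC1, a minus-end motor that focuses spindle poles and was still at 3.66 ± 0.493 scaled FPKM in CP (SD, n = 3). KIF20B, a motor of abscission needed for brain growth in mice (TSDBGID.8908, chromosome 15, 76586365 to 76673082), stood apart from the rest of the list. It was at 14.3, 10.8 and 13.4 scaled FPKM in VZ, 12.1, 14.0 and 16.2 in ISVZ, 10.4, 9.91 and 7.70 in OSVZ, and 6.89, 4.92 and 6.87 in CP, so its VZ mean was 2.06 times its CP mean. Its difference, -0.84 ± 0.13 (adjusted p = 3.06e-04), was the smallest of the 11. KIFC1 shares 98.7% of its span with the entry PHF1li1, at 2.43 in VZ and 5.24 in CP.

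Inside the germinal zone the mitotic kinesins stepped down at OSVZ. Against VZ, 15 members were lower in OSVZ (16.2% of all tested genes were) and 13 were higher (11.7% of all were), together 52.8% of members against 27.9% of genes. The 15 include 10 of the 11 mitotic kinesins, with a median of -0.90. The differences ranged from -1.32 ± 0.27 for KIF22 (adjusted p = 0.00386) to -0.42 ± 0.16 for KIF20B (adjusted p = 0.0806). KIF11 differed by -1.04 ± 0.18 (adjusted p = 0.00155) and KIF23 by -1.04 ± 0.20 (adjusted p = 0.00308). All 4 proliferation markers were called lower in OSVZ too, MKI67 by -0.95, TOP2A by -1.20, CDK1 by -1.05 and BUB1 by -1.09. The calls of 3 genes were unsteady. KIF14 (-0.50 ± 0.17, adjusted p = 0.0434) lost its call when any of the VZ or CP libraries, ISVZ 1, OSVZ 2 or OSVZ 3 was left out (adjusted p from 0.0541 to 0.141). KIF18B (-0.62 ± 0.19, adjusted p = 0.0303) lost it without any VZ library, OSVZ 2 or OSVZ 3 (0.0508 to 0.11), and KIFC1 (-0.67 ± 0.17, adjusted p = 0.0132) lost it without VZ 3 (0.0508). With VZ 1 and VZ 2 both left out, which leaves 1 VZ library, further calls of this class were lost, as were most over all genes. The differences of KIF14, KIF18B and KIFC1 were then -0.55, -0.78 and -0.78.

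ISVZ could not be told from VZ in this class. None of the 11 passed by limma (0 also at an unadjusted p under 0.05), and the median difference was -0.17. ISVZ 3 was the highest ISVZ library for all 11 mitotic kinesins as well as for the 4 proliferation markers. Without ISVZ 3, 4 of the 11 reached an unadjusted p under 0.05 and the smallest adjusted p was 0.058. Whether the share of dividing cells in ISVZ 3 has a part in this was not tested.

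The summed level of the class fell from 161 ± 11.8 scaled FPKM in VZ (SD, n = 3) through 146 ± 43.1 for ISVZ and 81.6 ± 16.5 for OSVZ to 12.7 ± 1.20 in CP. Genes that work with these kinesins moved alike: of 12 listed partners 9 were tested and all 9 fell in CP, with a median of -2.57. AURKB, the kinase of the chromosomal passenger complex, went from 37.3 ± 2.43 in VZ to 0.408 ± 0.214 in CP (difference -4.39 ± 0.20, adjusted p = 5.61e-08). RACGAP1, the partner of KIF23, differed by -2.63 ± 0.14 (adjusted p = 1.15e-07), its binding partner ECT2 by -3.00 ± 0.15 (adjusted p = 8.96e-08) and the kinase PLK1 by -2.63 ± 0.16 (adjusted p = 3.33e-07). HMMR, a spindle protein, had the smallest difference of the 9, -1.06 ± 0.22 (adjusted p = 0.00178). Summed proliferation markers moved with the class, from 153 to 179.7 in VZ to 1.34 to 3.01 in CP.

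**Figure D2:**
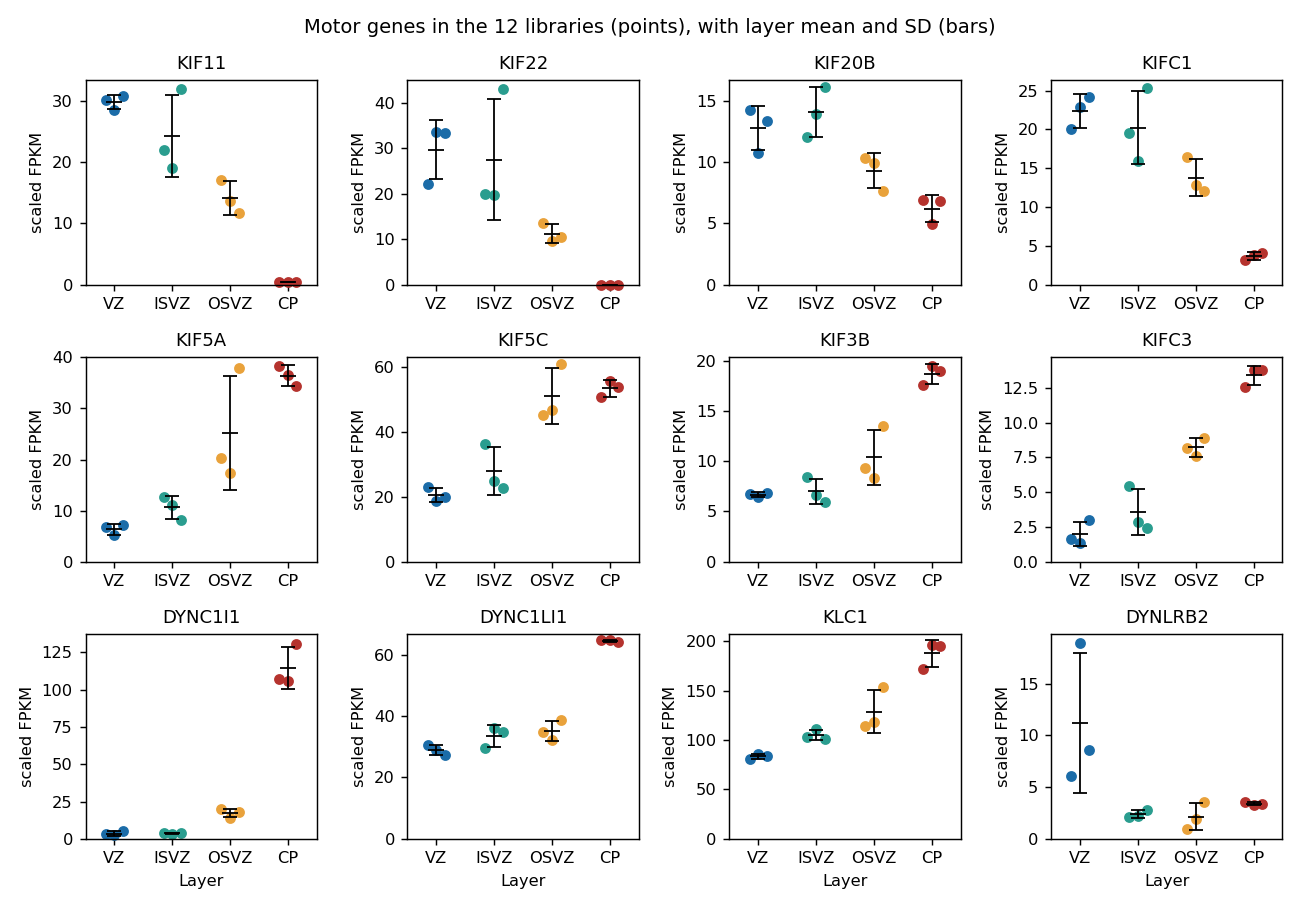
Scaled FPKM of 12 motor genes in each library (points) by layer, with the layer mean and SD as bars and each axis starting at 0. KIF11 and KIF22 end near or at 0 in CP while KIF20B stays between 4.92 and 6.89, and DYNC1I1 rises to 106 to 131 in CP from at most 5.17 in VZ and ISVZ.

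The cargo kinesins carry vesicles, organelles and other loads, and most of them rose. All 17 listed were found, 15 were tested, 9 rose in CP (KIF1B, KIF21B, KIF3A, KIF3B, KIF3C, KIF5A, KIF5C, KIFC2 and KIFC3), 3 fell (KIF1C, KIF21A and KIF13B) and 3 did not pass, with a median of 0.36. The same counts were found without OSVZ 3. Of all tested genes, 24.0% were higher in CP and 28.7% lower. KIF5A, a neuronal heavy chain of kinesin-1 (TSDBGID.24125, chromosome 7, 42614074 to 42657401), was at 6.71, 5.15 and 7.24 scaled FPKM in VZ, 12.7, 11.0 and 8.21 in ISVZ, 20.2, 17.3 and 37.9 in OSVZ, and 38.4, 36.5 and 34.4 in CP. VZ, ISVZ and CP did not overlap each other, and OSVZ 3 alone reached the level of CP. The CP mean was 5.72 times the VZ mean and the difference from the germinal mean was 1.55 ± 0.20 (adjusted p = 7.37e-05). The span of KIF5A overlaps by 2975 bases the entry KIF5A-AS-1, at 3.54 in VZ and 12.4 in CP. The part of that entry in the rise of KIF5A was not tested.

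KIF5C, a second neuronal heavy chain (TSDBGID.3822, chromosome 1, 130324385 to 130464314), was at 23, 18.8 and 19.9 scaled FPKM in VZ, 36.3, 24.9 and 22.7 in ISVZ, 45.4, 46.7 and 61.1 in OSVZ, and 50.7, 55.7 and 54.0 in CP. It had reached its CP level in OSVZ, with a difference of 0.78 ± 0.14 in CP against the germinal mean (adjusted p = 6.04e-04) and of 0.08 ± 0.17 in CP against OSVZ (adjusted p = 0.764). KIF5B, the heavy chain that most cell types use, was at 1.01, 0.281 and 0.374 in VZ, 1.21, 0.648 and 0.904 in ISVZ, 1.13, 0.186 and 0.982 in OSVZ, and 1.40, 0.941 and 0.802 in CP, with no detected difference (0.25 ± 0.21, adjusted p = 0.331). Its span lies wholly inside the entry L1RE1li92, which was at 17.8 in VZ and 14.4 in CP, so its low values are uncertain.

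In kinesin-2, KIF3A pairs with KIF3B or KIF3C. KIF3B (TSDBGID.2419, chromosome 10, 75550955 to 75611406) was at 6.76, 6.44 and 6.83 scaled FPKM in VZ, 8.39, 6.65 and 5.95 in ISVZ, 9.32, 8.29 and 13.5 in OSVZ, and 17.6, 19.5 and 19.0 in CP, a difference of 1.16 ± 0.13 (adjusted p = 2.45e-05). All CP libraries lay above all others. KIF3C, at 26.7 ± 1.80 in VZ, 39.8 ± 3.85 in ISVZ, 51.3 ± 4.04 in OSVZ and 65.7 ± 0.684 in CP, did not overlap between layers, and it was the 1 cargo kinesin of 15 that passed in ISVZ against VZ (0.56 ± 0.10, adjusted p = 0.00673). KIF3A differed by 0.75 ± 0.12 in CP (adjusted p = 3.61e-04). The span of KIF3B lies wholly inside that of ASXL1, at 12.1 in VZ and 11.0 in CP, and overlaps by 707 bases a noncoding entry, LINC-KIF3B-1, at 14.0 in VZ and 38.9 in CP; the part of the latter in the rise of KIF3B was not tested.

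The C-terminal kinesins move toward the minus end and have been studied in dendrites and in other transport. KIFC3 (TSDBGID.15847, chromosome 22, 48937735 to 48994601) was at 1.62, 1.38 and 2.99 scaled FPKM in VZ, 5.44, 2.85 and 2.42 in ISVZ, 8.21, 7.57 and 8.91 in OSVZ, and 12.6, 13.8 and 13.8 in CP, a CP mean 6.71 times the VZ mean and a difference of 1.55 ± 0.19 (adjusted p = 4.89e-05). KIFC2 was at 6.05, 5.89 and 8.0 in VZ, 9.77, 8.15 and 7.01 in ISVZ, 12.7, 9.19 and 16.8 in OSVZ, and 20.6, 18.4 and 19.0 in CP, a difference of 1.05 ± 0.16 (adjusted p = 1.86e-04). Both rose in OSVZ and again had their highest libraries in CP. KIFC2 lies wholly inside the annotated span of CYHR1, at 7.68 in VZ and 6.22 in CP.

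Members of 2 families moved against each other. KIF21A and KIF21B, which slow microtubule growth, went in opposite directions: KIF21A fell from 45.8 ± 3.33 scaled FPKM in VZ to 22.5 ± 4.25 in CP (difference -0.72 ± 0.10, adjusted p = 9.46e-05), while KIF21B went from 33.3 ± 3.73 to 55.1 ± 5.51 (0.35 ± 0.12, adjusted p = 0.0245). The KIF21B call in CP was lost without CP 1 (adjusted p = 0.113), without CP 3 (0.074), and with quantile normalisation (0.122) or equal totals (0.0542). Its difference between OSVZ and VZ, 0.65 ± 0.14 (adjusted p = 0.00626), held under all alternatives run. Among the KIF1 genes, KIF1C, which carries vesicles in many cell types, was at 3.67, 5.69 and 4.58 in VZ, 4.85, 4.32 and 3.82 in ISVZ, 4.94, 3.50 and 5.86 in OSVZ, and 2.18, 2.14 and 2.03 in CP, a fall of -0.83 ± 0.14 (adjusted p = 4.47e-04). KIF1B, a carrier of mitochondria and synaptic vesicle precursors, rose from 43.2 ± 2.57 in VZ to 57.1 ± 2.45 in CP (0.36 ± 0.10, adjusted p = 0.00832, or 0.0695 with quantile normalisation). Its span overlaps that of PGD by 19046 bases, and PGD was at 21.1 in VZ and 30.2 in CP. The part of shared reads was not tested. KIF1A, the other carrier of synaptic vesicle precursors, peaked in OSVZ at 44.1 ± 10.5 with 34.6 ± 4.77 in CP and 20.3 ± 1.16 in VZ, and its difference in CP from the germinal mean was 0.29 ± 0.17 (adjusted p = 0.172; 0.36 and adjusted p = 0.0391 without ISVZ 1).

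KIF13B, a carrier of vesicles at the cell cortex, fell from 1.82 ± 0.174 scaled FPKM in VZ to 1.06 ± 0.230 in CP (-0.45 ± 0.10, adjusted p = 0.00346; 0.0519 with quantile normalisation). KIF16B, a motor of early endosomes, showed no detected difference, with 1.40, 1.48 and 1.67 in VZ, 1.74, 1.15 and 1.06 in ISVZ, 1.76, 1.54 and 1.36 in OSVZ, and 1.84, 1.66 and 1.34 in CP (0.09 ± 0.12, adjusted p = 0.566). The ranges of all 4 layers overlapped.

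Most of the rise in this class was already present in OSVZ. Against VZ, 8 of the 15 cargo kinesins were higher in OSVZ and 1, KIF21A, was lower (-0.60 ± 0.12, adjusted p = 0.00379), with a median of 0.54. KIF5A differed by 1.76 ± 0.25 (adjusted p = 6.03e-04), KIFC3 by 1.66 ± 0.23 (adjusted p = 6.10e-04), KIF5C by 1.26 ± 0.17 (adjusted p = 4.74e-04), KIF1A by 1.06 ± 0.20 (adjusted p = 0.00317) and KIF3C by 0.92 ± 0.10 (adjusted p = 2.05e-04). OSVZ 3 was the highest OSVZ library for 10 of the 16 cargo kinesins that reached 1 scaled FPKM, and it also had the highest sum of neuron markers, though only 3 of those 6 were highest there; the part of its neuron content was not tested. Without OSVZ 3 the difference of KIF5A was 1.43 (adjusted p = 8.66e-04) and 7 of the 15 were higher. The call of KIF3B (0.54 ± 0.16, adjusted p = 0.0271) was lost without VZ 1 (adjusted p = 0.0568), VZ 2 (0.0826) or VZ 3 (0.0616), and without OSVZ 3 its difference was 0.35 (0.0824). With VZ 1 and VZ 2 both left out, which leaves 1 VZ library, calls were lost here and over all genes. KIF1A then differed by 0.98, KIFC2 by 0.59 and KIF3B by 0.51.

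Directly between CP and OSVZ, 8 members were higher (13.7% of all tested genes were) and 15 lower (17.3% of all were), together 43.4% against 31.0%, among the latter all 11 mitotic kinesins with a median of -1.97. KIF3B was higher by 0.82 ± 0.16 (adjusted p = 0.00309) and KIF1C lower by -0.87 ± 0.17 (adjusted p = 0.00314), and both calls held under all alternatives run. KIF5A differed by 0.60 ± 0.25 (adjusted p = 0.0892), and by 0.93 (adjusted p = 0.00331) without OSVZ 3.

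**Figure D3:**
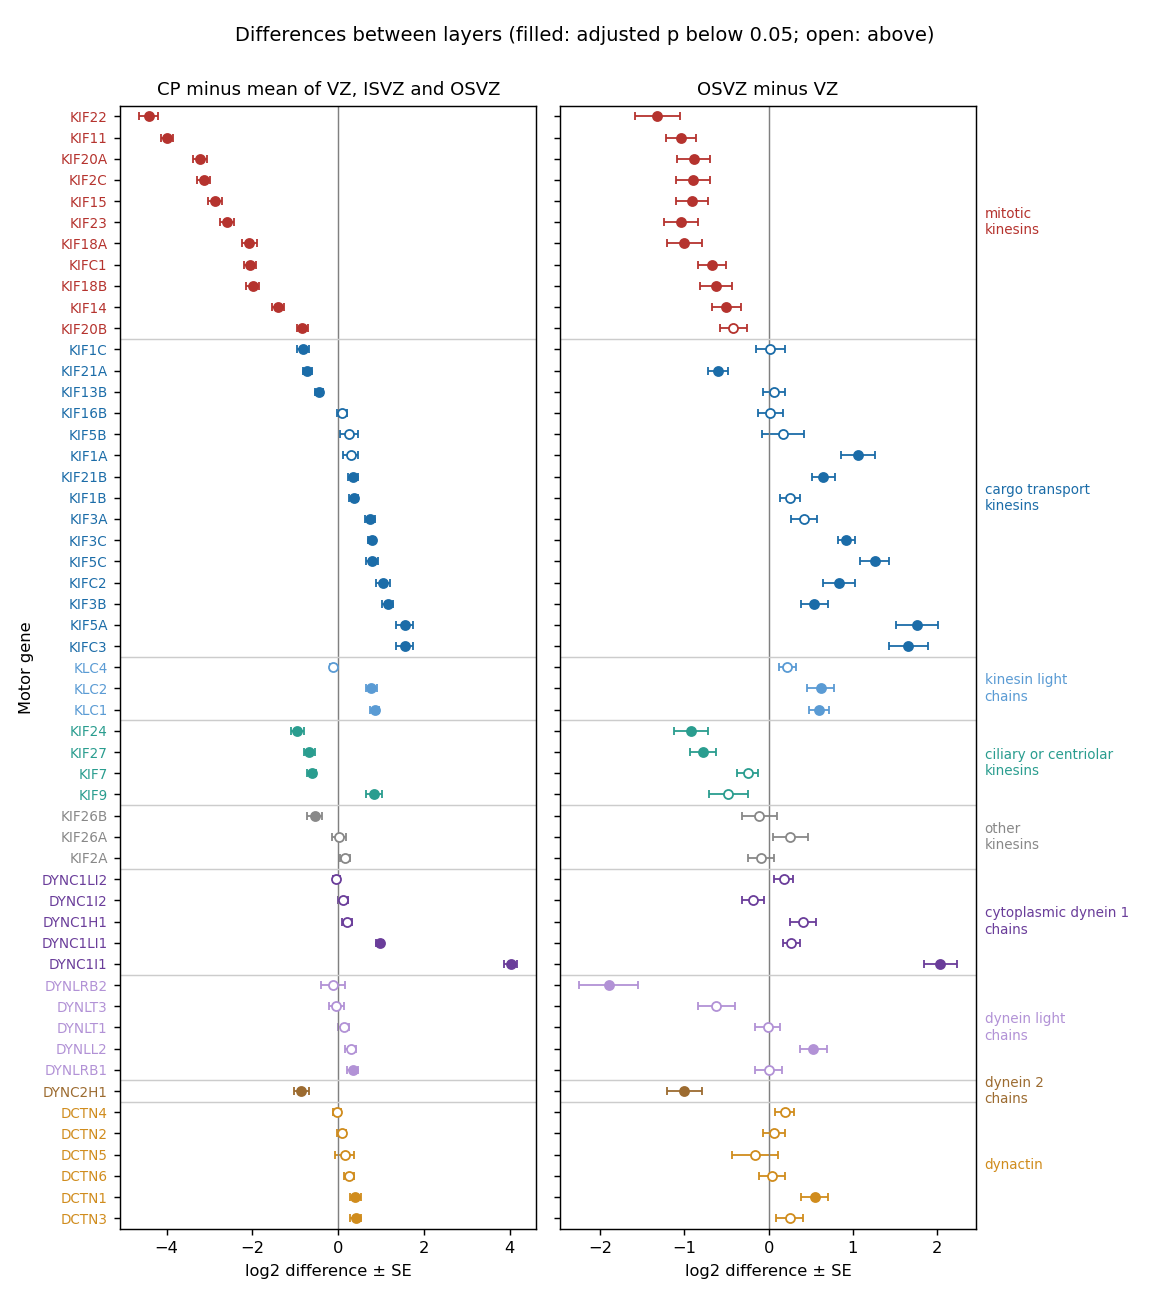
Log2 differences ± SE of the 53 tested motor genes in CP against the mean of VZ, ISVZ and OSVZ (left) and in OSVZ against VZ (right), with filled points below an adjusted p of 0.05. Mitotic kinesins lie left of 0 in both panels, most cargo kinesins lie right of 0, and DYNC1I1 lies farthest right in both.

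Kinesin light chains tie the kinesin-1 heavy chains to their loads. KLC1 (TSDBGID.1531, chromosome 5, 64252469 to 64353449) was the highest kinesin gene in every layer, at 80.4, 86.1 and 83.6 scaled FPKM in VZ, 103, 111 and 101 in ISVZ, 114, 118 and 154 in OSVZ, and 172, 196 and 195 in CP. The 4 layers did not overlap, and the difference of CP was 0.85 ± 0.10 (adjusted p = 3.12e-05), with 0.60 ± 0.12 already between OSVZ and VZ (adjusted p = 0.00379). KLC2 was at 9.35, 7.08 and 8.93 in VZ, 11.6, 8.48 and 9.04 in ISVZ, 14.9, 10.7 and 15.2 in OSVZ, and 19.2, 17.5 and 18.4 in CP, a difference of 0.77 ± 0.13 (adjusted p = 3.68e-04). Its OSVZ difference of 0.62 ± 0.16 (adjusted p = 0.0121) was lost without VZ 2 (0.0566). KLC4 was at 13.7, 13.2 and 13.5 in VZ, 16.3, 21.4 and 19.1 in ISVZ, 16.1, 16.2 and 15.4 in OSVZ, and 14.3, 14.0 and 15.3 in CP, highest in ISVZ. It did not pass in CP (-0.12 ± 0.08, adjusted p = 0.23). In ISVZ against VZ it rose by 0.45 ± 0.10 (adjusted p = 0.0176), a call lost without VZ 2 (0.0798), VZ 3 (0.0623) or ISVZ 2 (0.0774).

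Proteins that link kinesins to loads or switch them on also tended to be higher in CP: of 22 listed, 19 were found, 17 tested and 11 higher, with the other 6 not past the threshold and a median of 0.42. The share called higher was 64.7%, against 24.0% of all tested genes. SYBU, the syntabulin adaptor of kinesin-1, went from 9.25 ± 2.70 scaled FPKM in VZ to 43.0 ± 6.72 in CP (2.11 ± 0.26, adjusted p = 4.44e-05). KIFAP3, the adaptor subunit of kinesin-2, differed by 0.97 ± 0.14 (adjusted p = 1.20e-04), MAP7D2, which recruits kinesin-1 to microtubules, by 0.97 ± 0.16 (adjusted p = 4.43e-04), and GRIP1, an adaptor of KIF5 for glutamate receptors, by 0.83 ± 0.15 (adjusted p = 6.84e-04). MAP7D1 had the smallest difference of the list, -0.06 ± 0.09 (adjusted p = 0.595).

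Cytoplasmic dynein 1 is built on a heavy chain that walks, intermediate chains that bind dynactin and light intermediate chains that bind adaptors. In CP, 2 of its 5 chains rose and 3 did not pass. The called share, 40.0%, was below the 52.7% of all tested genes, of which 24.0% were higher. DYNC1I1, the intermediate chain best known from neurons (TSDBGID.22849, chromosome 6, start 100964038, end 101338314), was at 3.02, 2.40 and 5.17 scaled FPKM in VZ, 3.64, 3.31 and 3.76 in ISVZ, 19.7, 14.1 and 17.8 in OSVZ, and 107, 106 and 131 in CP. VZ and ISVZ shared 1 range, OSVZ lay above it and CP far above OSVZ, with a CP mean 32.5 times the VZ mean. The difference of CP was 4.02 ± 0.16 (adjusted p = 3.16e-08), that of OSVZ against VZ 2.04 ± 0.20 (adjusted p = 1.77e-04) and that of CP against OSVZ 2.67 ± 0.20 (adjusted p = 6.74e-06). ISVZ and VZ did not differ detectably (0.06 ± 0.20, adjusted p = 0.903). DYNC1I2, the intermediate chain found in most cells, did not follow it, with 44.2, 46.6 and 39.2 in VZ, 40.0, 55.5 and 50.7 in ISVZ, 37.7, 42.2 and 34.4 in OSVZ, and 49.6, 45.7 and 43.8 in CP (0.11 ± 0.11, adjusted p = 0.426).

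The light intermediate chains parted in a similar way. DYNC1LI1 (TSDBGID.18844, chromosome 29, 11320683 to 11359456) was at 30.6, 28.8 and 27.4 scaled FPKM in VZ, 29.5, 36.1 and 34.9 in ISVZ, 34.7, 32.3 and 38.6 in OSVZ, and 64.7, 64.8 and 64.1 in CP, with a difference of 0.97 ± 0.08 (adjusted p = 3.14e-06). The step lay at CP, 0.86 ± 0.10 above OSVZ (adjusted p = 1.27e-04). DYNC1LI2 was at 41.3, 42.4 and 41.0 in VZ, 44.1, 55.2 and 42.6 in ISVZ, 43.3, 52.3 and 46.6 in OSVZ, and 40.3, 45.7 and 45.7 in CP (-0.04 ± 0.09, adjusted p = 0.72). The heavy chain DYNC1H1 was at 28.4, 30.0 and 36.4 in VZ, 39.3, 32.5 and 34.0 in ISVZ, 41.9, 37.2 and 48.2 in OSVZ, and 41.9, 34.9 and 49.6 in CP, and did not pass in CP (0.21 ± 0.12, adjusted p = 0.177). Its VZ and OSVZ libraries did not overlap, with a difference of 0.41 (adjusted p = 0.0615) that passed in 5 of the alternatives run: without VZ 3 (0.0456), without CP 2 or CP 3 (0.0457), with quantile normalisation (0.0494) and with the replicate number as a block (0.0224). The calls of DYNC1I1 and DYNC1LI1 in CP held under all alternatives run.

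Shares within pairs of related genes describe these shifts on 1 scale, and no test was made on them. DYNC1I1 made up 7.65 ± 3.55% of the 2 intermediate chains of VZ (SD, n = 3), 6.95 ± 1.35% of those of ISVZ, 31.2 ± 5.32% in OSVZ and 71.1 ± 3.49% in CP. DYNC1LI1 was at 41.0 ± 1.33%, 41.5 ± 3.01%, 42.7 ± 3.91% and 59.5 ± 1.81% of the light intermediate pair in the same order. KIF21A fell from 57.9 ± 4.10% of the KIF21 pair in VZ to 46.2 ± 5.08%, 36.2 ± 3.31% and 28.9 ± 3.72%. KIF5A went from 23.6 ± 2.75% of KIF5A and KIF5C in VZ to 40.5 ± 2.25% in CP. KIF3C stayed between 77.9 ± 0.954% in CP and 85.1 ± 1.79% in ISVZ of KIF3B and KIF3C. Mitotic kinesins took 40.0 ± 2.11% of the summed mitotic and cargo kinesins in VZ, 34.2 ± 8.98% in ISVZ, 18.0 ± 3.91% in OSVZ and 2.91 ± 0.170% in CP.

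**Figure D4:**
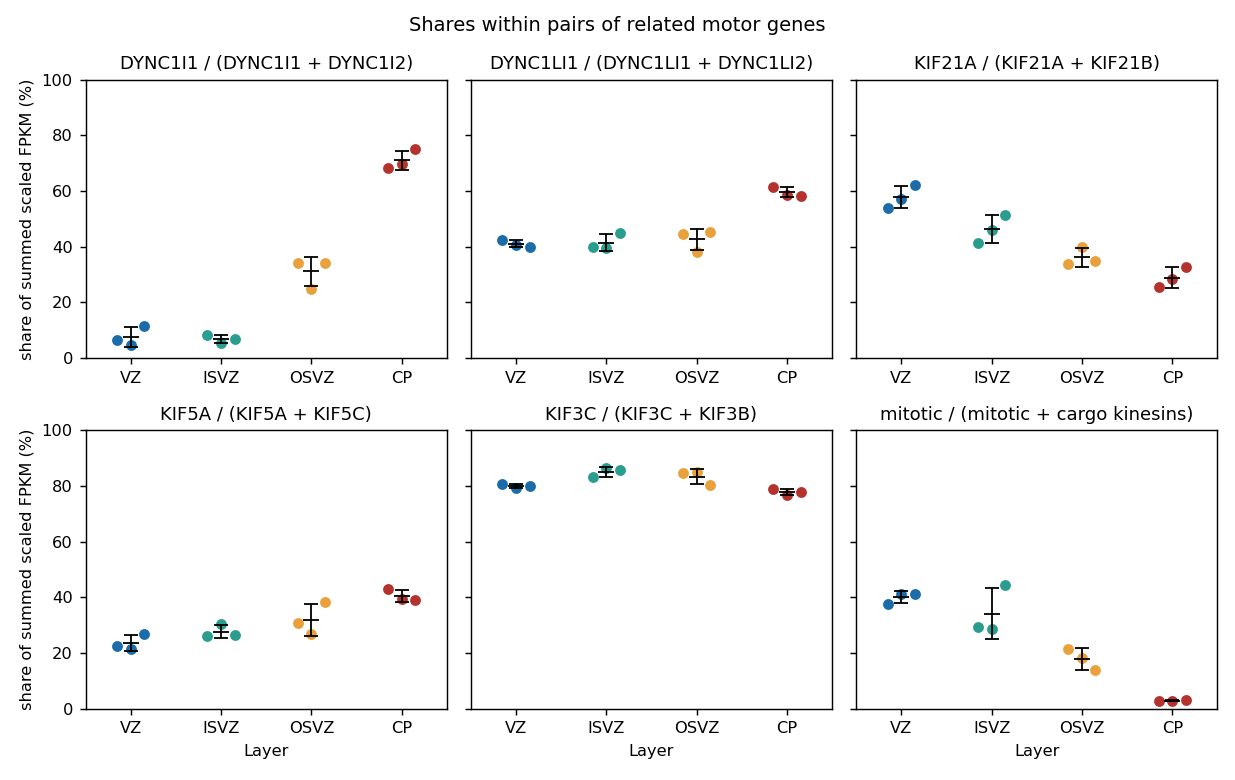
Share of 1 gene in the summed scaled FPKM of a pair, and of mitotic in mitotic plus cargo kinesins, in each library (points) by layer, with the layer mean and SD; all axes run from 0 to 100%. DYNC1I1 passes DYNC1I2 in CP at 71.1%, and the mitotic share falls from 40.0% in VZ to 2.91% in CP.

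The dynein light chains are small subunits, several of which also bind partners outside dynein. Of 10 names 6 were found and 5 tested. DYNLRB1, a roadblock chain, and DYNLT1, a Tctex chain, were the highest motor genes in the germinal layers. DYNLRB1 was at 234, 189.7 and 159 scaled FPKM in VZ, 188, 234 and 196 in ISVZ, 196, 195 and 186 in OSVZ, and 264, 283 and 206 in CP. Its difference of 0.34 ± 0.13 in CP (adjusted p = 0.0476) sat at the threshold and was lost in 12 of 21 alternatives, with adjusted p = 0.153 without CP 1, 0.21 without CP 2, and 0.0647 to 0.0741 without VZ 2, VZ 3, ISVZ 1, ISVZ 3 or any OSVZ library. DYNLT1 was at 160.3, 166 and 133 in VZ, 145, 212 and 208 in ISVZ, 151, 159.8 and 145 in OSVZ, and 169, 199.8 and 167 in CP (0.13 ± 0.13, adjusted p = 0.41).

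DYNLRB2, the roadblock chain known from ciliated and testis tissue (TSDBGID.15333, chromosome 22, 19905702 to 19921057), was highest in VZ. It was at 6.09, 18.9 and 8.56 scaled FPKM in VZ, 2.11, 2.21 and 2.80 in ISVZ, 0.950, 1.91 and 3.56 in OSVZ, and 3.54, 3.26 and 3.40 in CP. All VZ libraries lay above all others, and OSVZ against VZ differed by -1.90 ± 0.35 (adjusted p = 0.0026). ISVZ against VZ differed by -1.72 ± 0.35 (adjusted p = 0.0129; 0.0537 without ISVZ 2), and CP against the germinal mean by -0.12 ± 0.29 (adjusted p = 0.745). DYNLL2, an LC8 chain, was at 22.7, 21.7 and 16.7 in VZ, 23.6, 29.2 and 24.3 in ISVZ, 24.2, 29.8 and 35.6 in OSVZ, and 34.2, 30.6 and 27.3 in CP. It rose in OSVZ by 0.53 ± 0.16 (adjusted p = 0.0304), a call lost without VZ 2 (0.0551), VZ 3 (0.117), OSVZ 2 (0.0715) or OSVZ 3 (0.109), and in CP differed by 0.29 ± 0.13 (adjusted p = 0.0813). DYNLT3 was at 7.53, 7.61 and 5.86 in VZ, 3.14, 5.05 and 5.10 in ISVZ, 3.46, 3.78 and 5.55 in OSVZ, and 5.17, 3.56 and 6.20 in CP, with VZ above ISVZ and OSVZ but not past the threshold (OSVZ against VZ -0.62 ± 0.22, adjusted p = 0.0532).

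Of the 5 tested motors listed as ciliary or centriolar kinesins or as the ciliary dynein, 4 had their highest mean in VZ and KIF9 in CP. Kinesin-2 was listed with the cargo kinesins and is not among these 5. Its KIF3A and KIF3B had their highest mean in CP (42.2 and 18.7 scaled FPKM, against 20.8 and 6.68 in VZ). DYNC2H1, the heavy chain of the dynein that returns material from the ciliary tip (TSDBGID.5612, chromosome 10, 34945342 to 35274844), was at 3.39, 7.73 and 4.89 scaled FPKM in VZ, 2.08, 2.92 and 3.12 in ISVZ, 1.98, 2.10 and 2.08 in OSVZ, and 1.42, 1.13 and 1.22 in CP. Its difference in CP was -0.86 ± 0.17 (adjusted p = 0.00152) and was lower in OSVZ than in VZ (adjusted p = 0.00534). Of the 6 ciliary or centriolar kinesins 4 were tested, and 3 were lower (28.7% of all tested genes were) and 1 higher (24.0%) in CP. KIF24, which holds back cilium growth at the centriole, was at 3.70, 4.72 and 4.36 in VZ, 2.14, 1.91 and 4.15 in ISVZ, 2.15, 1.70 and 1.49 in OSVZ, and 0.952, 0.906 and 0.951 in CP (-0.95 ± 0.16, adjusted p = 4.66e-04). KIF27, tied to motile cilia, was at 1.03, 1.73 and 1.39 in VZ, 0.604, 0.579 and 0.878 in ISVZ, 0.322, 0.436 and 0.378 in OSVZ, and 0.0810, 0.102 and 0.154 in CP (-0.67 ± 0.13, adjusted p = 9.58e-04). KIF7, a regulator of Hedgehog signalling at the ciliary tip, was at 2.48, 2.72 and 2.91 in VZ, 2.44, 2.06 and 1.75 in ISVZ, 1.98, 2.14 and 2.21 in OSVZ, and 0.971, 1.16 and 1.30 in CP (-0.62 ± 0.10, adjusted p = 3.71e-04).

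KIF9, a motor of motile cilia, was at 1.39, 3.81 and 3.02 scaled FPKM in VZ, 0.888, 1.05 and 0.989 in ISVZ, 1.19, 1.47 and 2.16 in OSVZ, and 3.43, 3.89 and 3.73 in CP, so that VZ and CP were both high. CP lay above the germinal mean by 0.83 ± 0.19 (adjusted p = 0.00291). Its span overlaps that of KLHL18 by 958 bases, and KLHL18 went from 2.44 in VZ to 7.04 in CP; the part of shared reads was not tested. The fall of KIF9 in ISVZ against VZ (-0.86 ± 0.23, adjusted p = 0.0385) was lost without any 1 of VZ 2, VZ 3, the ISVZ libraries, OSVZ 2 or the CP libraries (0.0525 to 0.173). VZ 2 was the highest library for 4 of the 6 ciliary kinesins, for DYNC2H1 and for DYNLRB2, as it was for the motile cilia marker FOXJ1 and the choroid plexus markers; the part of these cells in the VZ values was not tested. Without VZ 2 the difference between OSVZ and VZ passed for DYNC2H1 and for DYNLRB2 as well. That fit does not remove these cells, since it keeps VZ 1 and VZ 3. FOXJ1 was at 11.3 and 20.0 there against at most 0.924 outside VZ, and choroid plexus markers summed to 556 and 37.0.

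All 6 dynactin members were tested, 2 were higher in CP and 4 did not pass, with a median of 0.21. The called share, 33.3%, was below the 52.7% of all tested genes, of which 24.0% were higher. DCTN1, the long arm that holds microtubules and dynein (TSDBGID.2529, chromosome 12, 51414085 to 51432930), was at 19.7, 18.5 and 22.3 scaled FPKM in VZ, 26.4, 19.9 and 20.0 in ISVZ, 30.0, 24.3 and 36.9 in OSVZ, and 33.4, 28.5 and 32.8 in CP. Its difference in CP was 0.40 ± 0.13 (adjusted p = 0.0228), lost without CP 1 (0.0882) or CP 3 (0.079) and under all 3 other scalings (0.0598 to 0.0889). Its difference in OSVZ against VZ, 0.55 ± 0.16 (adjusted p = 0.023), was lost without VZ 1 (0.0584), VZ 2 (0.086), OSVZ 1 (0.0576) or OSVZ 3 (0.0832). DCTN3, a shoulder subunit, was the highest dynactin gene, at 98.1, 120.0 and 90.0 in VZ, 109.6, 158 and 132 in ISVZ, 114, 137 and 113 in OSVZ, and 155, 177 and 141 in CP (0.41 ± 0.13, adjusted p = 0.0194; 0.0526 without CP 1 and 0.104 without CP 2).

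The other dynactin members did not pass in CP. DCTN2, the shoulder subunit dynamitin, was at 51.1, 69.3 and 69.4 scaled FPKM in VZ, 66.5, 72.5 and 71.6 in ISVZ, 56.9, 66.1 and 73.6 in OSVZ, and 65.1, 73.6 and 70.8 in CP (0.08 ± 0.11, adjusted p = 0.564). The pointed-end subunit DCTN4 was at 31.9, 33.3 and 31.5 in VZ, 36.2, 40.8 and 35 in ISVZ, 33.4, 36.5 and 41.6 in OSVZ, and 31.7, 36.9 and 36.8 in CP (-0.02 ± 0.09, adjusted p = 0.898), so that VZ lay below ISVZ and OSVZ but overlapped CP. DCTN5, at the same end, was at 30.3, 25.2 and 19.4 in VZ, 23, 30.1 and 24.7 in ISVZ, 23.1, 26.7 and 17.2 in OSVZ, and 38.0, 30.4 and 16.6 in CP (0.15 ± 0.22, adjusted p = 0.589). Its partner DCTN6 came closest to the threshold, with 33.5, 34.8 and 27.7 in VZ, 30.3, 40.8 and 38.6 in ISVZ, 29.7, 34.4 and 34.3 in OSVZ, and 42.3, 46.2 and 33.6 in CP (0.26 ± 0.12, adjusted p = 0.0945; 0.0296 without CP 3). Of the 6 listed filament and cap subunits of the complex 5 were tested and 2 were higher: ACTR1A, the main filament protein, by 0.51 ± 0.11 (adjusted p = 0.00271) and the cap protein CAPZB by 0.31 ± 0.10 (adjusted p = 0.0178; 0.115 without CP 2, and also lost with FPKM as deposited and with quantile normalisation). ACTR10, CAPZA1 and ACTR1B differed by 0.24, 0.29 and 0.16 (adjusted p = 0.0561, 0.0892 and 0.342). The called share of these 5 subunits was 40.0%, against 52.7% of all tested genes. CAPZA1 among them was at most 1.28 scaled FPKM in any library, and CAPZA2 is listed at 0. The copy CAPZA2li1 went from 23.7 ± 2.03 in VZ to 27.9 ± 5.98 in CP (0.44 ± 0.12, adjusted p = 0.00853). The copy CAPZA1li4, at most 1.37, differed by -0.10 ± 0.12 (adjusted p = 0.525). Both copies were chosen after their values were seen.

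Of 20 listed dynein regulators and adaptors, 15 were tested, 4 were higher in CP, 4 were lower and 7 did not pass, with a median of 0.09. The called share, 53.3%, was near the 52.7% of all tested genes. NUMA1, which anchors dynein at the cortex of dividing cells, fell from 39.6 ± 3.16 scaled FPKM in VZ to 17.1 ± 2.56 in CP (-1.25 ± 0.12, adjusted p = 9.60e-06), and NINL, a centrosomal adaptor, differed by -0.68 ± 0.09 (adjusted p = 6.71e-05). NDEL1, a dynein activator in migrating neurons, rose from 6.22 ± 0.627 to 18.6 ± 0.278 (1.08 ± 0.10, adjusted p = 5.15e-06), and HOOK1, an adaptor, by 0.91 ± 0.14 (adjusted p = 2.01e-04), while HOOK2 differed by -0.02 ± 0.14 (adjusted p = 0.935). PAFAH1B1, which encodes LIS1, is at most 0.00451 under its own name while the entry PAFAH1B1li1 went from 26.2 ± 0.996 in VZ to 53.1 ± 2.46 in CP (0.82 ± 0.08, adjusted p = 8.44e-06). NDE1, the relative of NDEL1 in progenitors, is at most 0.496 while NDE1li1 went from 9.41 ± 2.50 to 0.142 ± 0.124 (-2.73 ± 0.16, adjusted p = 2.53e-07). BICDL1 is at most 0.21 while BICDL1li1 went from 1.51 ± 0.291 in VZ to 6.57 ± 0.177 in CP (1.23 ± 0.13, adjusted p = 1.50e-05). These copies were chosen after their values were seen and are not in the counts of the list.

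Of the kinesins in no class above, 3 were tested. KIF26B, an atypical kinesin without motor activity, was at 15.7, 10.6 and 13.0 scaled FPKM in VZ, 15.1, 9.79 and 12.5 in ISVZ, 12.8, 10.2 and 12.9 in OSVZ, and 8.23, 5.99 and 10.9 in CP (-0.55 ± 0.17, adjusted p = 0.0196). That call was lost without CP 1 (0.0547) and without CP 2, where the difference was -0.35 (0.13). Its relative KIF26A was at 2.67, 2.54 and 3.94 in VZ, 3.40, 3.07 and 4.57 in ISVZ, 4.66, 3.01 and 3.84 in OSVZ, and 3.92, 2.45 and 4.49 in CP (0.02 ± 0.17, adjusted p = 0.923). KIF2A, a depolymerase that trims axon branches, was at 30.4, 25.7 and 26.2 in VZ, 29.4, 29.5 and 24.5 in ISVZ, 28.3, 25.0 and 24.0 in OSVZ, and 38.3, 29.2 and 24.6 in CP (0.16 ± 0.12, adjusted p = 0.297). The layers of the last 2 overlapped throughout.

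In ISVZ against VZ, 4 members passed in all, which is 7.55% against 8.72% of tested genes. KIF3C and KLC4 were higher (1.54% of all tested genes were), and DYNLRB2 and KIF9 were lower (7.18% of all were). With VZ 1 and VZ 2 both left out, which leaves 1 VZ library, these calls were lost, as were most over all genes. The differences were then 0.53 for KIF3C, 0.45 for KLC4, -1.51 for DYNLRB2 and -1.03 for KIF9.

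The 11 members below the filter were not tested. DYNLL1, KIF4A and KIF2B are listed at 0 in all 12 libraries. The highest scaled FPKM was 2.29 for KIF6, 2.16 for KIF13A, 1.69 for KIF19, 0.838 for DYNC2LI1, 0.819 for KLC3, 0.198 for KIF12, 0.120 for KIF17 and 0.0534 for KIF25. KIF6 and KIF19, both motors of motile cilia, had that value in VZ 2. DYNC2LI1, a light intermediate chain of the ciliary dynein, was highest in CP, at a mean of 0.775 against 0.536 in VZ. For 5 of these genes an entry named as a copy reached a higher level than the member, and for KIF25 that copy, KIF25li1, was at most 0.191. DYNLL1li2 (chromosome 23, 11264830 to 11294715) was at 35.1 to 55.3 in VZ, 50.0 to 64.1 in ISVZ, 49.9 to 60.1 in OSVZ and 64.4 to 94.4 in CP, higher in CP by 0.52 ± 0.15 (adjusted p = 0.015; 0.101 without CP 2). KIF4Ali1 (chromosome 3, 52244051 to 52399194) was at 10.6, 10.6 and 11.5 in VZ, 8.84, 6.98 and 12.2 in ISVZ, 6.21, 4.63 and 4.34 in OSVZ, and 1.56, 1.72 and 1.32 in CP, a fall of -1.83 ± 0.14 (adjusted p = 1.70e-06). It moved as the tested mitotic kinesins did. KIF13Ali1 ranged from 2.53 to 7.87 and KIF19li1 from 2.88 to 4.29.

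The annotated spans of the members often overlap other entries, and the share over all tested genes was not counted. Of the 53 tested members, 31 overlap another entry at a mean of 1 scaled FPKM or more, and 11 have over 50% of their span inside it. Among the members that moved most, KIF20A lies wholly inside CDC23, at 7.53 in VZ and 7.15 in CP, and DYNLRB2 wholly inside CDYL2li1, at 1.49 and 2.75. Whether reads were shared between such entries was not tested.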

How the data were processed

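For each library the authors deposited 1 table of FPKM per gene with its bounds, in Cufflinks layout per the file headers. The submitters' processing notes list HISAT2 and Cufflinks, with no version. Genome build, annotation and strand setting: not given in the sources used here. Entries sharing a gene ID were summed (360 IDs) and 4 IDs with a failed status left out. Each library was divided by the median of its ratios over 10200 genes (factors 0.947 to 1.06), and values under 1e-06 were written as 0. Read depth is unknown from FPKM; summed FPKM was 244696 to 276661 per library, and the bounds had a median half-width of 7.73% to 13.0%. No pair of libraries was identical (0 pairs).

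Tests used limma 3.58.1 in R 4.3.3 on log2 (scaled FPKM + 1): 1 mean per layer, a variance trend with level, 8 residual degrees of freedom, two-sided, Benjamini-Hochberg over 14101 genes, threshold 0.05. The procedure was tested on simulated data. Every library is given for up to 6 members of a class with the largest and 2 with the smallest difference in CP; of each list outside the rule, 4 and 1 genes are named. Members and lists were chosen with earlier results of these data known. Alternatives changed the scaling, pseudocount, filter, variance trend, replicate number and libraries used. No sequence is shown, since no genome of this build was used here.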

Additional observations from a re-analysis of the deposited data

How the results depend on the processing

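Over 21 alternatives the 212 member differences gave 4384 values, of which 4110 kept direction and call, 134 lost the call, 47 gained it and 0 reversed a called difference; 93 changed sign with no call. Leaving out 1 library at a time gave 35 to 40 members by the F test (38 in the main analysis), 31 to 36 in CP against the germinal layers (36), 21 to 30 in OSVZ against VZ (28), 18 to 25 in CP against OSVZ (23) and 1 to 6 in ISVZ against VZ (4). The last count was 2 without a filter and, with the replicate number as a block, 7. Leaving out VZ 1 and VZ 2 together, which was chosen after seeing the data, gave 13 in OSVZ against VZ and 0 in ISVZ against VZ; fewer samples are used there. With quantile normalisation the ISVZ split was 2 higher and 1 lower in place of 2 and 2. With a pseudocount of 0.1 the median in CP was -4.16 for mitotic and 0.58 for cargo kinesins. In residuals, 16 of 18 same-numbered pairs correlated above 0.1 (0.063 to 0.425) and 12 of 12 libraries were closest to their own number, a hint from the data and not from the design; the block gave 40, 36, 29 and 26 members in the F test, CP against the germinal layers, OSVZ against VZ and CP against OSVZ. FPKM keeps no read depth, so no limit from depth could be computed.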
